A study of Mus musculus with 2 samples.

Results

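The 10 genes of the provisional matrix and of hyaluronan (*Fn1*, *Postn*, *Tnc*, *Vcan*, *Hapln1*, *Has2*, *Cd44*, *Sparc*, *Thbs1* and *Thbs4*) were followed, out of 19550 genes counted, through 9 cell classes of the mouse esophagus, the gastroesophageal squamocolumnar junction (GE-SCJ) and the stomach. They were chosen by name, with their levels in these cells already known, and *Postn* and *Fn1* were taken because their direction had been seen to differ between groups. The levels below therefore describe these genes and test nothing. The tissue came from wild-type C57BL/6 mice without any treatment at embryonic day 15 (E15, 6 mice), embryonic day 19 (E19, 2 mice), 2 days after birth (pup, 2 mice) and 8 weeks of age (adult, 3 mice). Mice were pooled within each region and stage, every pool was dissociated with collagenase and marked with its own oligonucleotide tag, and the tagged cells were sequenced together in 1 library. Of the 12 combinations of region and stage, 11 held cells, and the adult stomach held none.

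The provisional matrix is the loose, hydrated scaffold that is laid down in embryonic tissue and again in wounds, before dense collagen replaces it. Fibronectin gives cells a fiber to crawl along, hyaluronan is a large sugar polymer that swells with water, versican binds hyaluronan through link protein, and CD44 is the receptor by which cells grip hyaluronan. Periostin, tenascin-C, SPARC and the thrombospondins are matricellular proteins, which sit in the matrix and change how cells attach to it and respond to growth factors, and in the developing gut wall they are made mostly by fibroblasts and smooth muscle.

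On the mouse genome build GRCm38, the GENCODE annotation placed *Fn1* at chr1:71585520-71653200, *Postn* at chr3:54361109-54391037, *Tnc* at chr4:63959785-64047015, *Has2* at chr15:56665627-56694539, *Cd44* at chr2:102811141-102901665, *Sparc* at chr11:55394500-55423183 and *Thbs1* at chr2:118111876-118127133. The remaining 3 genes lay on chromosome 13, *Hapln1* at chr13:89539796-89611652, *Vcan* at chr13:89655312-89742509 and *Thbs4* at chr13:92751590-92794818. None of the 10 overlapped another gene on its own strand. RefSeq promoter windows of 300 bases (250 before the start of transcription, build GRCm38.p6) were at hand for 7 of the 10 genes, in 9 windows. *Fn1*, *Has2* and *Thbs1* had none. The windows of *Postn* and *Tnc* are shown because the levels of these genes went together over the fibroblast groups (below) and because both, and none of the other 5 members with a window, held the letters TATAAA, the core of a TATA box, on either strand. The capitals mark these letters. They began 26 bases before the start in *Postn* (chr3:54360857-54361156, plus strand) and 126 bases before it in *Tnc* (chr4:64046966-64047265, minus strand). A second *Tnc* window, which overlaps this one, holds the same site 205 bases before its own start. Nearer that start it also holds the letters TATATAAG, which the search for TATAAA did not match. A second *Postn* window (chr3:54359017-54359316) holds no TATAAA.
Postn: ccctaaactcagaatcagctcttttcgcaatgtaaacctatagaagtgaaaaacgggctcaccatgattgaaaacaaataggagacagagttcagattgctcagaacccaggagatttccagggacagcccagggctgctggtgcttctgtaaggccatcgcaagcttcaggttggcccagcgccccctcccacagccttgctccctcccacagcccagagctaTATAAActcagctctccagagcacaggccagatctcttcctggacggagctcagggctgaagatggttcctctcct
Tnc: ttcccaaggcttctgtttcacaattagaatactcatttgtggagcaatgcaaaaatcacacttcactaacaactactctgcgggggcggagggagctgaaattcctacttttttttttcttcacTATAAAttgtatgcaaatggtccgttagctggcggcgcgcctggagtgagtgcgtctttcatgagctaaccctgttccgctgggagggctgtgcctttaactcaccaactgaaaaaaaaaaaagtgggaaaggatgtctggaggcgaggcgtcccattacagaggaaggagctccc
TATAAA occurred in 2 of the 7 members with a window (3 of the 9 windows, of which 2 share the *Tnc* site) and in 13.6% of 32851 mouse promoter windows of the same length. The letters TGANTCA, the site of AP-1 factors, occurred in none of the 9 windows and in 7.81% of all. Those of GGGCGG, a GC box, occurred in 5 windows (*Cd44*, *Thbs4*, *Tnc* and *Vcan*), of which 2 share the *Tnc* site, and in 35.7% of all. These are matches of letters and were not shown to be bound, and a link between them and the levels was not tested.

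The deposited table held 7808 cells with 107865155 unique molecular identifiers (UMIs, each standing for 1 captured RNA molecule) and a median of 10424.5 UMIs per cell. A level is given in CPM, the UMIs of a gene over all UMIs of the cells of a group, scaled to counts per 1000000, with an exact 95% Poisson interval. Each group is 1 pool, so there are no replicates, no test between groups was possible, and the intervals cover counting error only, not the spread between cells or mice. The class that the authors labelled stromal is called fibroblast here, since its 3442 cells carried *Col1a1* at 6885 CPM, *Dcn* at 3447 and *Pdgfra* at 261, and *Ptprc*, *Pecam1* and *Sox10* below 2 CPM. Within the fibroblast groups, 5 smooth muscle genes together stood at 421 to 2481 CPM, highest at E19 in each region, and 4 pericyte genes at 219 to 714, and their part in the results was not tested. A second stromal label of 139 cells carried genes of mesothelium, with *Wt1* at 388 CPM and *Upk3b* at 864, and is kept apart. Of the fibroblast genes it held little *Pdgfra* (7.45 CPM) and *Lum* (18.6), but *Col1a1* at 3159 CPM, *Col3a1* at 2575 and *Dcn* at 1846. Of 93 groups (class, region and stage), the 55 with at least 20 cells are described. Fibroblasts gave 10 such groups of 31 to 739 cells, and the 15 adult fibroblasts of the GE-SCJ were left out. Pup fibroblasts were shallower, with a median of 3859 to 5072.5 UMIs per cell against 9025 to 10573 before birth.

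Fibroblasts held most UMIs of 9 of the 10 genes. Their share was 91.9% for *Thbs4*, 82.6% for *Has2*, 80.3% for *Fn1*, 78.6% for *Vcan*, 76.2% for *Sparc*, 67.8% for *Thbs1*, 67.6% for *Postn*, 61.1% for *Hapln1* and 55.0% for *Tnc*, whose next holder was smooth muscle with 32.6%. *Cd44* was spread more widely, with 38.4% of its UMIs in fibroblasts, 24.1% in squamous cells, 12.9% in immune cells and 11.6% in smooth muscle. These shares also follow the number and depth of the cells in each class, and fibroblasts held 32454976 of the 107865155 UMIs of all genes. By level over all cells of a class, another class was highest for some genes. These were *Tnc* (120 CPM in smooth muscle against 68.0 in fibroblasts), *Postn* (223 in neural cells against 178) and *Hapln1* (27.5 in endothelial cells against 9.24). *Sparc* (4758 in the second stromal label against 3851) and *Cd44* (175 in immune cells against 60.6) were the others.

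**Figure D1:**
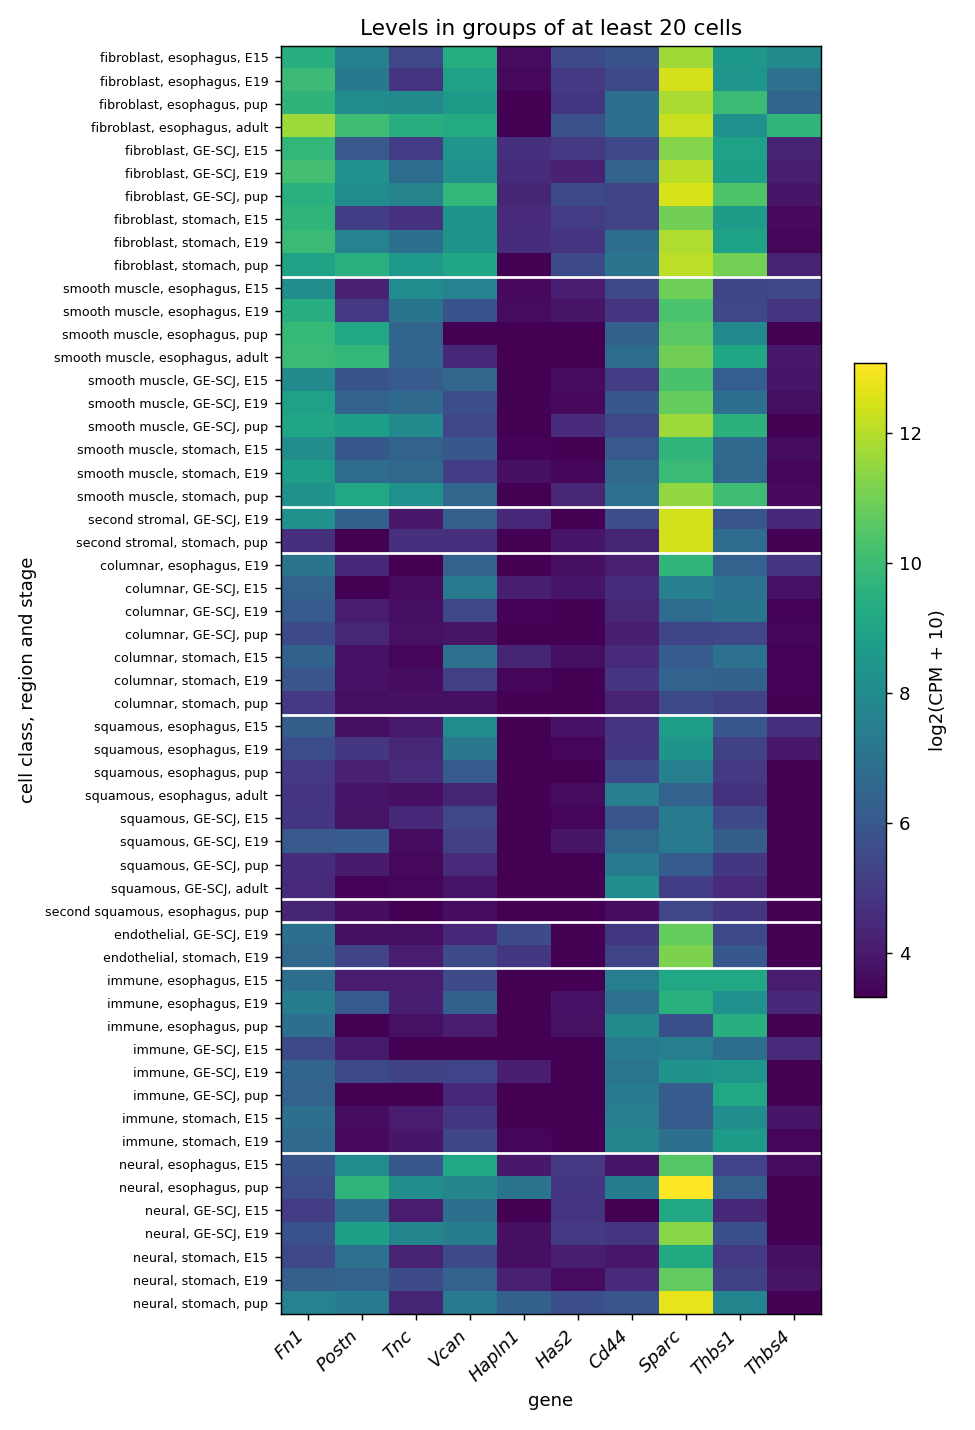
Levels of the 10 genes (columns) in the 55 groups of at least 20 cells (rows, ordered by cell class, region and stage), as log2(CPM + 10), where the color scale runs from dark for low to yellow for high. *Fn1*, *Vcan*, *Sparc* and *Thbs1* are bright through the 10 fibroblast rows, *Thbs4* is bright in the 4 esophageal fibroblast rows, and *Sparc* is brightest in the neural rows of the pup.

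Among the matrix glycoproteins, *Fn1* (fibronectin) was present in fibroblasts of each region at each stage. In the esophagus its level was 700.3 CPM (674 to 727.4) at E15, 1023 (999.9 to 1047) at E19, 807.5 (738.7 to 880.9) in pups and 3206 (2936 to 3494) in adults. The GE-SCJ gave 863, 1140 and 729 CPM at E15, E19 and pup, and the stomach 821, 1002 and 486 CPM. In each region E19 lay above E15 and above the pup with intervals that did not overlap, and the pup lay above E15 in the esophagus (log2 ratio 0.21, 0.07 to 0.35) but below it in the GE-SCJ (-0.24, -0.42 to -0.06) and the stomach (-0.75, -0.95 to -0.55). The adult value rested on few cells, since 255 of its 518 *Fn1* UMIs came from 1 of 31 cells. Without that cell it was 1781 CPM.

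*Postn* (periostin, which ties collagen and tenascin to the cell surface) had another order of the regions at each stage. Esophageal fibroblasts had 187 CPM (173.7 to 201.4) at E15, 144 (135 to 152.9) at E19, 253 (215.4 to 295.8) in pups and 1046 (894.2 to 1216) in adults. The GE-SCJ had 55.2 CPM (47.9 to 63.2), 297 (282.9 to 311.3) and 257 (209 to 311.8). In the stomach the level was 25.1 CPM (20.4 to 30.7) at E15, 190 (179.3 to 200.5) at E19 and 719 (642.4 to 802) in the pup. At E15 the esophagus stood above the GE-SCJ and the GE-SCJ above the stomach, at E19 the GE-SCJ was highest and the esophagus lowest, and in the pup the stomach was highest while esophagus and GE-SCJ overlapped. As a log2 ratio of esophagus over stomach, *Postn* went from 2.88 (2.58 to 3.20) at E15 to -0.40 (-0.52 to -0.28) at E19 and -1.50 (-1.78 to -1.22) in the pup. In the pup, 94 of the 321 stomach UMIs came from 1 cell, without which the level was 519.6 CPM, and 29 of the 101 UMIs of the GE-SCJ came from 1 cell, without which it was 185.5 CPM.

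*Tnc* (tenascin-C, an anti-adhesive glycoprotein of growing and healing tissue) was low in fibroblasts at E15, at 32.02 CPM (26.6 to 38.2) in the esophagus, 22.6 (18.0 to 27.9) in the GE-SCJ and 15.98 (12.2 to 20.5) in the stomach. At E19 the regions had parted, with 17.8 CPM (14.8 to 21.2) in the esophagus against 99.8 (91.8 to 108.4) in the GE-SCJ and 108 (100.6 to 116.7) in the stomach, a log2 ratio of esophagus over stomach of -2.60 (-2.89 to -2.32). Pup fibroblasts had 237 CPM (200.7 to 278.6) in the esophagus, 198 (156.6 to 247.3) in the GE-SCJ and 365 (311.2 to 425.6) in the stomach, and the adult esophagus had 675 (553.9 to 813.8). Esophagus and GE-SCJ overlapped in the pup, and the stomach lay above both. From E19 to pup, *Tnc* differed by 3.74 (3.39 to 4.09) on the log2 scale in the esophagus and by 1.00 (0.65 to 1.35) in the GE-SCJ, and in the esophagus the E19 level was below that of E15. In the GE-SCJ pup, 24 of 78 UMIs came from 1 cell, without which the level was 139.7 CPM.

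**Figure D2:**
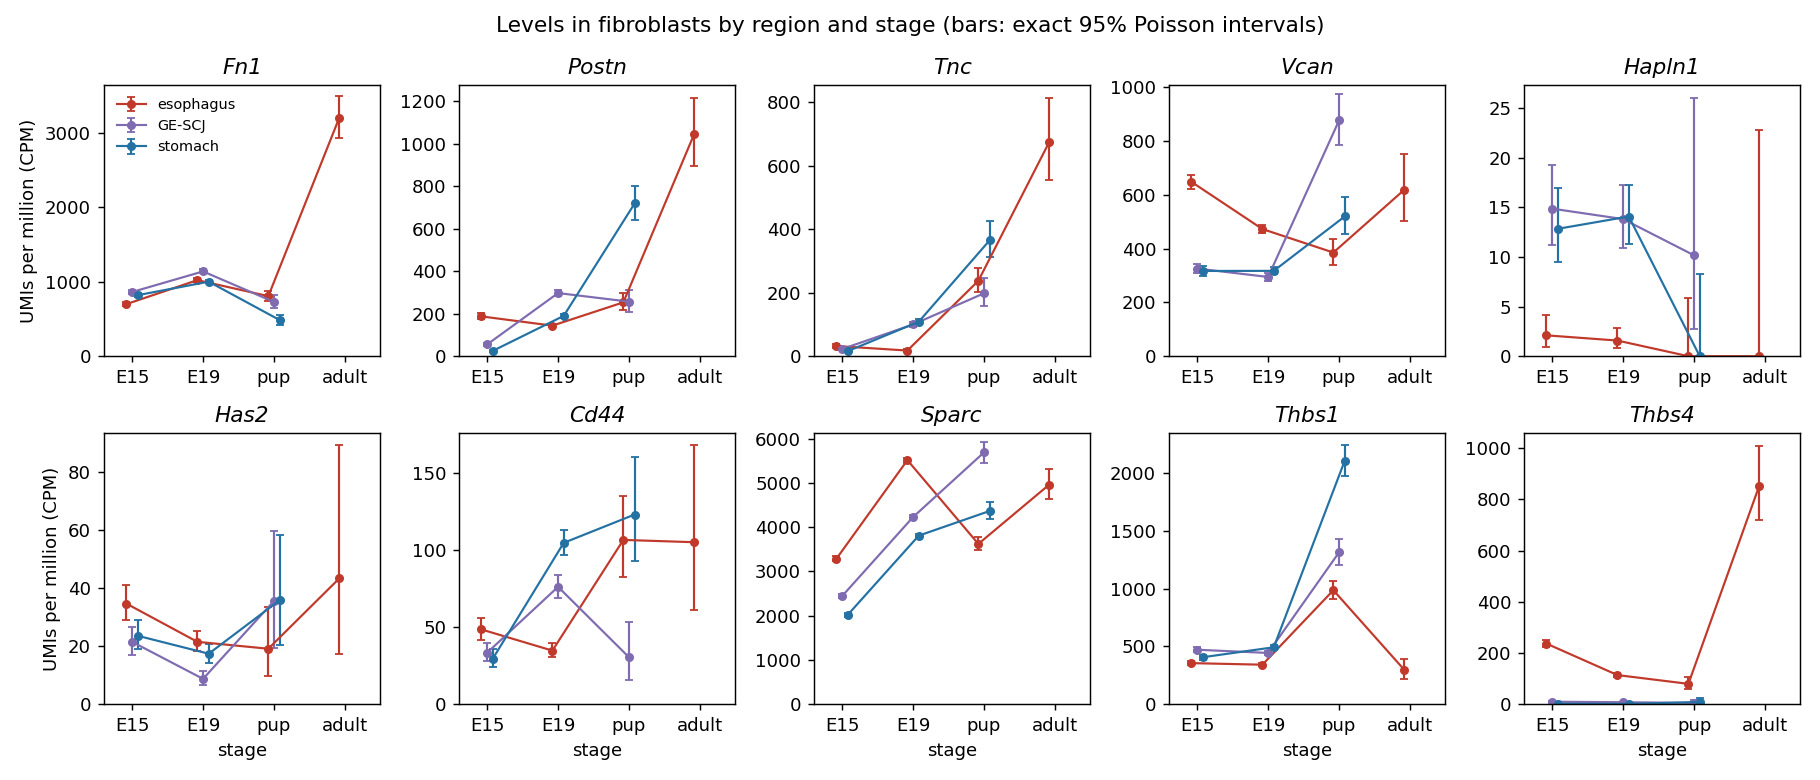
Level in CPM (vertical axes, each from 0) of the 10 genes in fibroblasts at E15, E19, pup and adult (horizontal axes), with 1 line for each region and exact 95% Poisson intervals as bars. *Postn* lines cross between E15 and the pup, and *Thbs4* is high in the esophagus only, with 854 CPM in the adult. *Thbs1* is highest in the pup in the 3 regions, where the esophagus alone has an adult point.

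Of the hyaluronan group, *Vcan* (versican, the large proteoglycan that fills the space between cells) went opposite ways in the regions. In esophageal fibroblasts it was 648 CPM (622.8 to 674.2) at E15, 473 (456.7 to 489.1) at E19, 385 (338.4 to 437.2) in pups and 619 (503.6 to 752.8) in adults. The GE-SCJ had 326 CPM (307.8 to 344.5), 295 (280.7 to 309) and 876 (786.3 to 973.9), and the stomach 317 (299.3 to 335.3), 317 (303.9 to 331.2) and 519.6 (454.9 to 590.9). At E15 the esophagus was above both other regions, which overlapped, and in the pup the GE-SCJ was the highest and the esophagus the lowest of the 3. From E15 to pup the log2 ratio was -0.74 (-0.94 to -0.55) in the esophagus, 1.43 (1.25 to 1.60) in the GE-SCJ and 0.72 (0.51 to 0.92) in the stomach.

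*Has2* (the main hyaluronan synthase of embryonic mesenchyme) was sparse, with 7 to 150 UMIs per fibroblast group. In the esophagus its level was 34.7 CPM (29.0 to 41.1) at E15, 21.5 (18.2 to 25.2) at E19, 19.1 (9.88 to 33.4) in pups and 43.3 (17.4 to 89.3) in adults. In the GE-SCJ it was 21.5 (17.1 to 26.7), 8.74 (6.49 to 11.5) and 35.6 CPM (19.4 to 59.7), and in the stomach 23.6 (18.95 to 29.0), 17.4 (14.4 to 20.9) and 35.8 CPM (20.5 to 58.2). The 3 pup intervals overlapped each other, and at E19 the GE-SCJ lay below both other regions.

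*Hapln1* (link protein, which locks versican onto hyaluronan) was found chiefly outside the esophagus before birth. Fibroblasts of the GE-SCJ had 14.9 CPM (11.2 to 19.3) at E15 and 13.8 (10.9 to 17.2) at E19, and those of the stomach 12.8 (9.50 to 17.0) and 14.1 (11.4 to 17.2). The esophagus had 2.10 (0.907 to 4.14) and 1.58 CPM (0.787 to 2.82), below both other regions at either stage. In the pup there were 4 UMIs in the GE-SCJ and 0 in the esophagus and stomach. A count of 0, given the limit of 3 counts, allowed up to 6.72 CPM in the pup stomach. That limit was 1.91-fold below the E15 level there, with the counting error at E15 left out. In the pup esophagus a count of 0 allowed 4.78 CPM, above the prenatal level, and no difference was detectable.

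*Cd44* (the hyaluronan receptor) had 48.6 CPM (41.8 to 56.1), 34.8 (30.6 to 39.5), 107 (82.7 to 135.5) and 105 (61.3 to 168.5) in esophageal fibroblasts at E15, E19, pup and adult. In the stomach it had 29.6 CPM (24.4 to 35.6) at E15, 105 (97.2 to 112.9) at E19 and 123 (92.8 to 160.3) in the pup. The GE-SCJ, with 33.4 (27.9 to 39.8), 76.2 (69.2 to 83.7) and 30.5 CPM (15.8 to 53.3), was highest at E19, where the stomach and the esophagus held the highest and the lowest of the 3 regions. In the pup stomach 18 of 55 UMIs came from 1 cell, without which the level was 85.0 CPM.

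Among the matricellular genes, *Sparc* (a collagen-binding protein) was detected in nearly every fibroblast. The esophagus had 3288 CPM (3231 to 3346) at E15, 5515 (5460 to 5570) at E19, 3622 (3474 to 3774) in pups and 4964 (4626 to 5320) in adults. In the GE-SCJ it had 2443 (2393 to 2493), 4229 (4176 to 4283) and 5690 CPM (5457 to 5931), and in the stomach 2021 (1977 to 2067), 3809 (3762 to 3856) and 4367 CPM (4175 to 4565). Before birth the order was esophagus, GE-SCJ, stomach, with no overlap between neighbours, and in the pup it was GE-SCJ, stomach, esophagus. The pup lay above E19 in the GE-SCJ and stomach and below it in the esophagus.

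*Thbs1* (thrombospondin-1, an activator of latent TGF-beta) was highest in the pup in the 3 regions. The esophagus had 355 CPM (336.7 to 374.9) at E15, 342 (328.3 to 355.9) at E19, 986 (909.7 to 1067) in pups and 297 (219 to 393.9) in adults. The GE-SCJ had 471 (449.5 to 493.6), 443.5 (426.4 to 461.1) and 1313 CPM (1203 to 1432), and the stomach 406.5 (386.5 to 427.2), 493 (475.8 to 509.8) and 2105 CPM (1973 to 2244). The 3 pup values did not overlap with each other or with a prenatal value, and the adult value overlapped with both prenatal values of the esophagus.

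*Thbs4* (thrombospondin-4, a matrix protein of tendon and muscle attachments) set the esophagus apart. Esophageal fibroblasts had 237 CPM (221.6 to 252.7) at E15, 114 (106.1 to 122.1) at E19, 79.6 (59.1 to 105) in pups and 854 (717.6 to 1009) in adults. The GE-SCJ had 9.82 CPM (6.91 to 13.5) at E15, 7.87 (5.74 to 10.5) at E19 and 2 UMIs in the pup, and the stomach had 7, 7 and 4 UMIs at the 3 stages, which gave 1.83, 1.06 and 8.96 CPM. Esophageal values stood above those of the other regions at each shared stage, and the GE-SCJ stood above the stomach at E15 and E19. The log2 ratio of esophagus over stomach was 6.82 (5.84 to 8.04) at E15 and 6.56 (5.57 to 7.78) at E19. In the adult, 43 of 138 UMIs came from 1 cell, without which the level was 623 CPM. In the pup stomach, 3 of the 4 UMIs came from 1 cell, without which the level was 2.27 CPM. Among markers of other cell types, the tendon genes *Scx* and *Tnmd* together stayed between 0 and 19.9 CPM over the fibroblast groups, and the 4 skeletal muscle genes *Myod1*, *Mb*, *Acta1* and *Tnnt3* between 3.67 and 24.8.

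The study followed the 3 regions through development, and the 10 genes were set against all genes for the difference between pup and E15. A gene was counted where both groups together held at least 100 UMIs, and past the threshold where the levels differed at least 2-fold (a log2 ratio of 1). In the esophagus 9 members passed the minimum. Of these, *Tnc* (log2 ratio 2.89, 2.53 to 3.24), *Thbs1* (1.47, 1.33 to 1.61) and *Cd44* (1.15, 0.73 to 1.56) were higher in the pup and *Thbs4* (-1.55, -1.98 to -1.14) was lower, while 8.84% of 6361 genes were past the threshold upward and 12% downward. In the GE-SCJ 7 members passed, and *Tnc* (3.14), *Postn* (2.22), *Thbs1* (1.48), *Vcan* (1.43) and *Sparc* (1.22) were higher and none lower, beside 7.89% of 6259 genes upward and 12.8% downward. In the stomach 8 passed, and *Postn* (4.83, 4.50 to 5.17), *Tnc* (4.50, 4.07 to 4.95), *Thbs1* (2.37, 2.25 to 2.49), *Cd44* (2.07) and *Sparc* (1.11) were higher and none lower, beside 6.88% of 6539 genes upward and 10.5% downward. As the mean of per-cell CPM, the esophageal ratio of *Cd44* was 0.87, short of the threshold. The median log2 ratio of the members that passed was 0.21, 1.43 and 1.59 in the 3 regions, and that of all counted genes -0.12, -0.13 and -0.14. The genes were picked with these contrasts known, so the counts are no evidence that the group stands apart.

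Immediate early genes, which are induced within minutes by growth factors and by tissue dissociation, were higher in the pup when summed. Of the 7 genes summed, *Fosb* went the other way outside the esophagus. It was at 691 and 702 CPM before birth and 472.5 in the pup in the GE-SCJ, and at 559, 458 and 338 in the stomach. The summed level of 7 of them (*Fos*, *Fosb*, *Jun*, *Junb*, *Egr1*, *Atf3* and *Ier2*, a list made after the data were seen) in pup fibroblasts was 13475 CPM in the esophagus, 12409 in the GE-SCJ and 12100 in the stomach, against 3137 to 7452 before birth and 1789 in the adult esophagus. *Thbs1* and *Tnc* were also higher in the pup than before birth in each region, and in the adult esophagus, where the immediate early genes were low, *Thbs1* was lower than in the pup and *Tnc* higher. The 4 columnar genes *Krt8*, *Krt18*, *Epcam* and *Agr2* together were also higher in pup fibroblasts, at 447.5 CPM in the esophagus, 391 in the GE-SCJ and 470.3 in the stomach against 188 to 249 before birth. The part of these gene lists, and of the lower depth of pup cells, in the results was not tested.

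From pup to adult, where the esophagus alone gave enough fibroblasts (151 and 31), 7 members passed the minimum. *Thbs4* (log2 ratio 3.40, 2.93 to 3.90), *Postn* (2.05), *Fn1* (1.99, 1.81 to 2.17) and *Tnc* (1.51) were higher in the adult and *Thbs1* (-1.70, -2.15 to -1.28) was lower, while 7.73% of 1268 genes were past the threshold upward and 13.0% downward. Of the 31 adult cells, 1 had mostly prenatal cells as its 15 nearest neighbours, and without it the same 5 genes were past the threshold. Without cells that held a UMI of *Epcam*, *Ptprc*, *Pecam1*, *Sox10* or *Myh11*, markers of other classes, the ratio was 1.03 for *Fn1* and 1.38 for *Postn*. Adult cells with mostly prenatal neighbours were 0 of 30 in esophageal smooth muscle, and 2 of 232 and 3 of 86 in esophageal and GE-SCJ squamous cells. In groups too small to be described they included 8 of 15 GE-SCJ fibroblasts, 9 of 19 GE-SCJ columnar cells and 4 of 5 esophageal immune cells. Whether these cells carried a wrong tag was not tested.

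Between regions, esophagus over stomach gave different members at each stage. At E15, 9 members passed, and *Thbs4* (6.82), *Postn* (2.88) and *Vcan* (1.03, 0.93 to 1.13) were higher in the esophagus, with *Tnc* just short at 0.99 (0.54 to 1.46), beside 2.59% of 8450 genes upward and 2.45% downward. At E19 all 10 passed, with *Thbs4* (6.56) higher and *Hapln1* (-3.05, -4.05 to -2.18), *Tnc* (-2.60) and *Cd44* (-1.59, -1.80 to -1.37) lower, beside 3.05% of 10009 genes upward and 4.11% downward. In the pup 7 passed, with none higher and *Postn* (-1.50) and *Thbs1* (-1.09) lower, beside 3.33% of 1830 genes upward and 2.08% downward. *Thbs4* fell under the minimum in the pup, with 50 UMIs in the esophagus and 4 in the stomach, though its level stayed higher in the esophagus. *Hapln1* fell under it at E15, with 8 and 49 UMIs, though its level was lower in the esophagus at that stage too. *Fn1*, which was within 0.23 of equality at E15 and E19 on the log2 scale, was higher in the esophagus in the pup by 0.73 (0.50 to 0.96). With cells thinned to 3000 UMIs each, the ratio of *Tnc* at E15 was 2.34, past the threshold, but 6 stomach cells held 1 UMI each and no others held any. That of *Postn* in the pup was -0.97 with thinning, just short of the threshold.

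**Figure D3:**
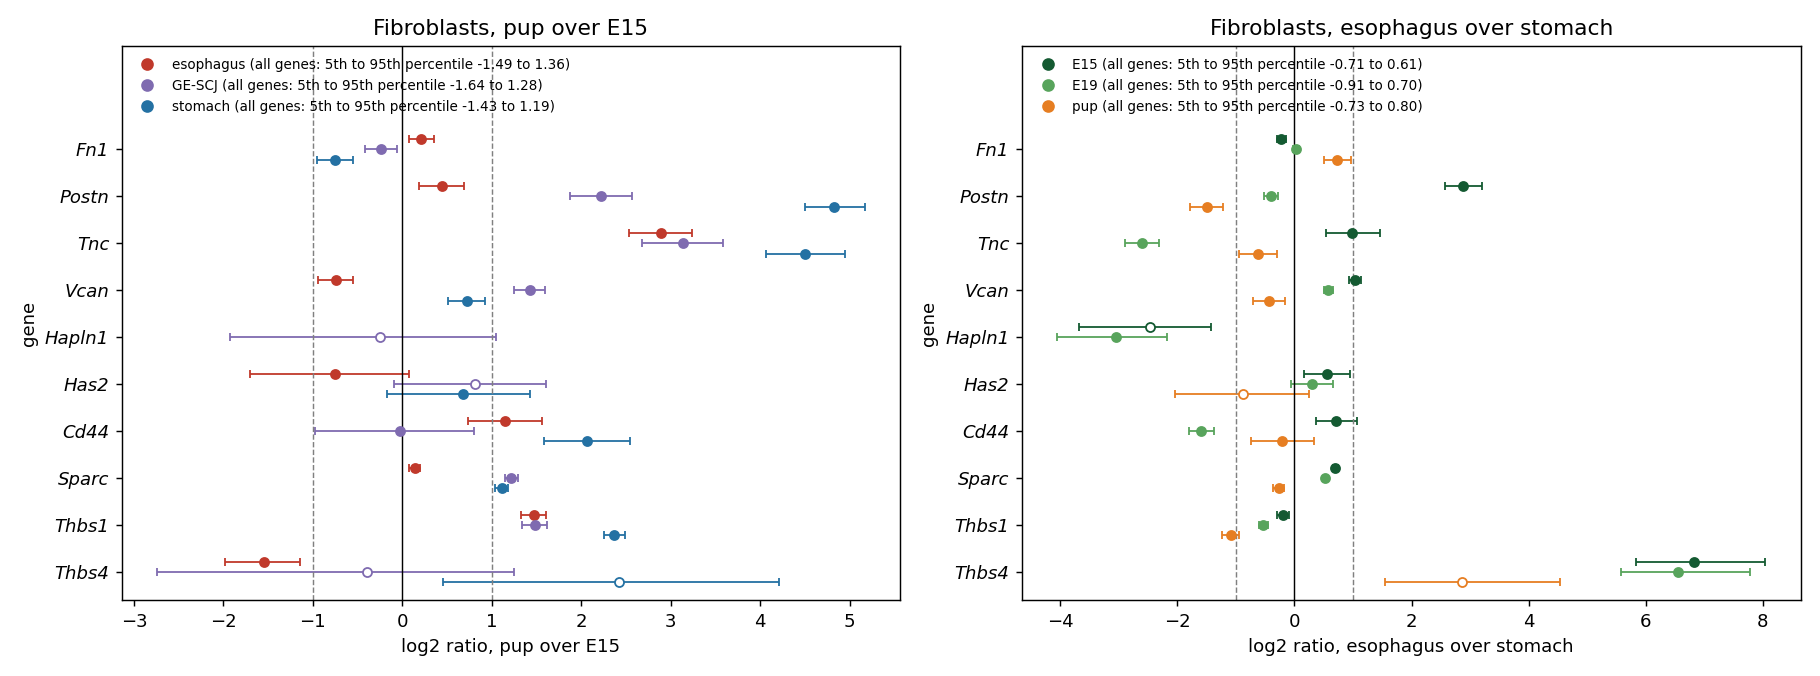
Log2 ratios of the members in fibroblasts (horizontal axis) for pup over E15 in the 3 regions (left) and esophagus over stomach at the 3 shared stages (right), with exact 95% intervals as bars, dashed lines at 2-fold and open symbols for genes under 100 UMIs over both groups. *Tnc* and *Thbs1* lie right of the 2-fold line in the 3 regions on the left, and *Postn* moves from 2.88 to -1.50 on the right.

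Levels per group can come from a few cells or from many, so cells were thinned to 3000 UMIs each (shallower cells, 1 to 43 per group, were left out) and those with a UMI were counted, with exact binomial intervals. *Sparc* was found in 91.2% to 100% of fibroblasts and *Fn1* in 52.0% to 89.7%. The background, columnar cells of the pup stomach, gave 6.36% and 4.05%. Columnar levels varied over 7 groups, from 31.5 to 836 CPM for *Sparc*, 20.5 to 124 for *Fn1* and 27.1 to 130 for *Thbs1*. That of *Thbs1* was lowest in the pup stomach, and the background at other stages was not measured. In the esophagus the *Fn1* share was 78.2% at E15 and 62.0% in the pup, although the pup level was higher. *Postn* was found in 14.8% of esophageal fibroblasts at E15, 20.6% at E19, 25.9% in pups and 50% in adults. In the GE-SCJ it was found in 10.1%, 30.9% and 18.9%, and in the stomach in 5.95%, 28.0% and 27.3%, against 2.38% of immune cells. The stomach pup share thus did not exceed the E19 share, although the level was higher, and the 10% of cells with the most *Postn* held 78.8% of the pup UMIs and 60.1% of the E19 UMIs. For *Tnc* the stomach shares were 1.70%, 21.1% and 33.8% and the esophageal shares 7.08%, 3.07%, 25.9% and 34.6%, and the background in immune cells was 1.70%. In the GE-SCJ they were 5.76%, 18.7% and 16.2%, so the pup share did not exceed the E19 share although the level was higher. There the 10% of cells with the most *Tnc* held 91.0% of the pup UMIs and 65.0% of the E19 UMIs. For *Postn* and *Tnc*, these parts held by 10% of the cells were taken without thinning. Pup cells were shallower, so the parts are not matched for depth between pup and E19. *Thbs4* was found in 42.8%, 28.0%, 18.5% and 42.3% of esophageal fibroblasts and in at most 2.60% of those of the other regions, against 1.36% of immune cells. *Thbs1* shares (6.07% of the columnar cells) were higher in the pup than before birth in the esophagus (68.5% against 46.9% and 51.0%), the GE-SCJ (77.0% against 61.4% and 57.4%) and the stomach (84.4% against 46.7% and 61.3%). The median depths before thinning were 3859 to 10573 UMIs in fibroblasts, 29810 in the columnar cells and 8266.5 in the immune cells.

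**Figure D4:**
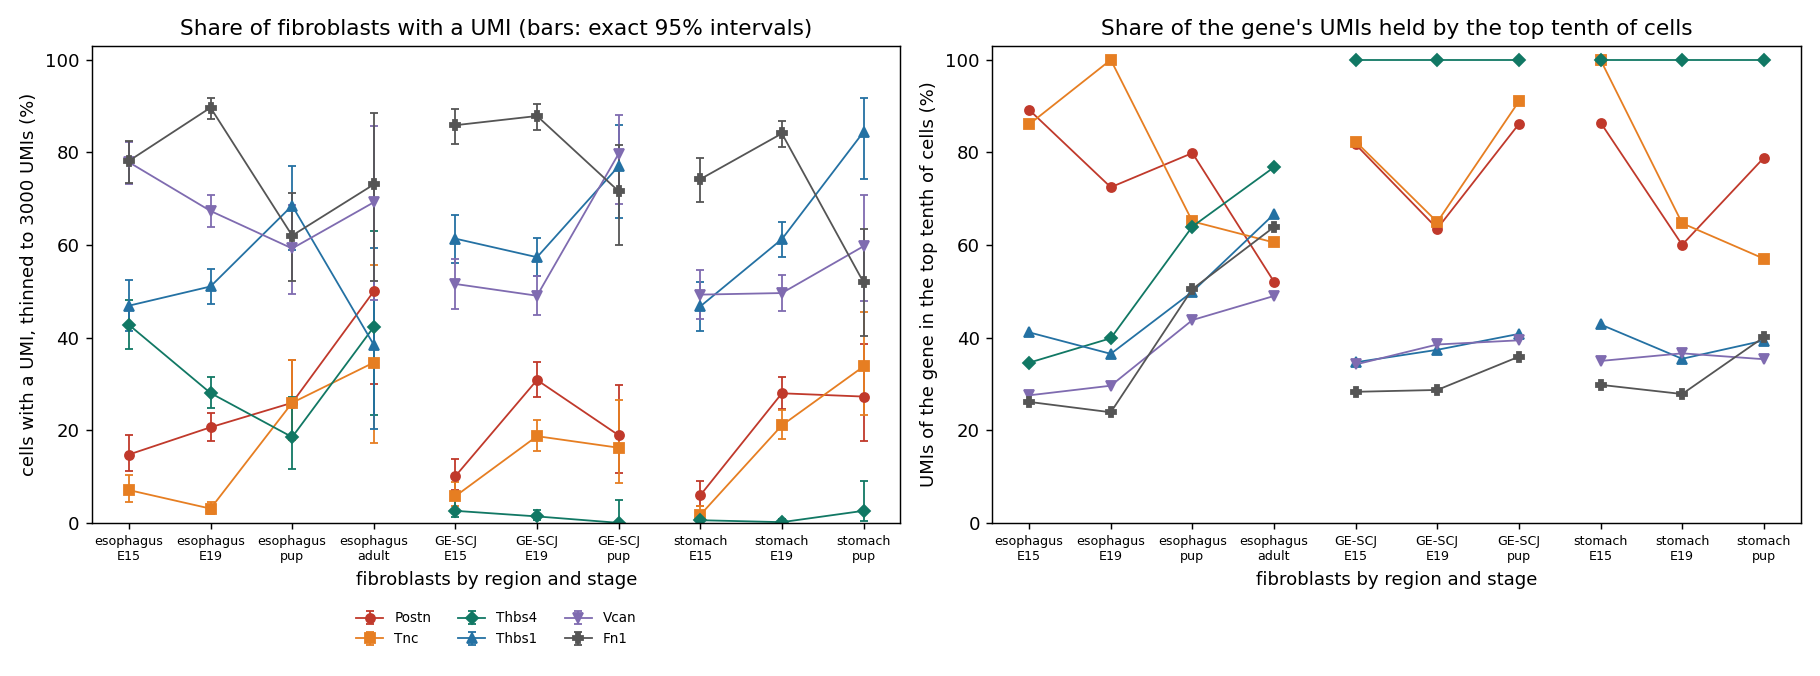
Share of fibroblasts with a UMI after thinning to 3000 UMIs (left, percent, with exact 95% binomial intervals) and share of a gene's UMIs held by the 10% of cells with the most (right, percent), for 6 genes over the 10 fibroblast groups on the horizontal axes. *Thbs4* is found in up to 42.8% of esophageal cells and in few others, and *Postn* and *Tnc* are concentrated in fewer cells than *Fn1* in the prenatal groups. The right panel uses all UMIs of the cells, without thinning, so it is not matched for depth between stages.

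The authors split the fibroblast label into 4 clusters that followed region and stage. Cluster 1 (891 cells) was mostly prenatal esophagus, cluster 0 (1409 cells) mostly prenatal GE-SCJ and stomach, cluster 3 (812 cells) was found in each region before birth, and cluster 9 (330 cells) held 149 of 151 esophageal, 73 of 82 GE-SCJ and 60 of 78 stomach pup cells and 30 of 31 adult esophageal cells. The clusters were made from these same counts, so the differences between them are a description. At E15 *Postn* was at 435 CPM in cluster 3 of the esophagus against 18.0 in cluster 1, at 155 against 23.9 in cluster 0 of the GE-SCJ, and at 45.7 against 12.02 in cluster 0 of the stomach. At E19 the levels were 192 against 142 CPM, 471 against 217 and 206 against 187, and the log2 ratio was lower than at E15 in each region (0.45 after 4.57 in the esophagus, 1.12 after 2.69 in the GE-SCJ and 0.14 after 1.90 in the stomach). *Thbs1* and *Fn1* went the other way in the 6 prenatal groups, at 35.5 to 189 CPM of *Thbs1* in cluster 3 against 353 to 602 in clusters 0 and 1, and at 330.5 to 623 CPM of *Fn1* against 777 to 1377. The esophageal *Postn* at E15 therefore sat largely in cluster 3, which held 136 of the 347 cells, and at E19 in cluster 1, which held 678 of 739.

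Smooth muscle, whose 1027 cells carried *Acta2* at 12616 CPM and *Myh11* at 3738, showed some of the same contrasts. In the esophagus *Postn* was at 8.82 CPM (10 UMIs) and 21.6 before birth and at 549.6 and 875 in pup and adult, and it was at 47.9, 74.0 and 427 in the GE-SCJ and at 54.4, 97.4 and 564 in the stomach. Pup over E15 gave log2 ratios of 5.85 (4.91 to 6.92), 3.14 (2.78 to 3.52) and 3.36 (3.02 to 3.71), each with intervals that excluded equality. *Thbs1* was at 30.9, 32.4, 227 and 519 CPM in the esophagus, 64.7, 108 and 760 in the GE-SCJ and 90.7, 88.1 and 1044 in the stomach. Unlike in fibroblasts, esophageal *Thbs1* was higher in the adult than in the pup (1.16, 0.52 to 1.83).

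*Tnc* in smooth muscle was highest at E15 in the esophagus, at 257 CPM against 130, 78.5 and 81.7 at the later stages, but highest in the pup in the GE-SCJ (59.5, 89.8 and 244 CPM) and the stomach (76.8, 86.5 and 285 CPM). At E15 esophageal smooth muscle had more *Tnc* than esophageal fibroblasts, with a log2 ratio of fibroblast over smooth muscle of -3.00 (-3.31 to -2.69), and in the adult it had less (2.96, 2.18 to 3.85). *Vcan* in esophageal smooth muscle was at 191 CPM at E15, 45.4 at E19, 0 UMIs in the pup, where 0 allowed up to 26.2 CPM, and 11.7 CPM in the adult. That limit, of 3 counts, was 7.32-fold below the E15 level, with the counting error at E15 left out. Summed immediate early genes were also higher in the pup in smooth muscle (5208, 12735 and 12144 CPM against 1135 to 5516 before birth) and were at 11389 CPM in the adult esophagus. Columnar cells differed between the regions. At E15, E19 and pup, columnar *Fos* was at 866, 2014 and 1064 CPM in the GE-SCJ and 603, 1267 and 1441 in the stomach. Columnar *Jun* was at 1097, 1639 and 705 CPM in the GE-SCJ and 757, 1020 and 854 in the stomach. The pup and adult esophagus held 22 and 30 smooth muscle cells.

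**Figure D5:**
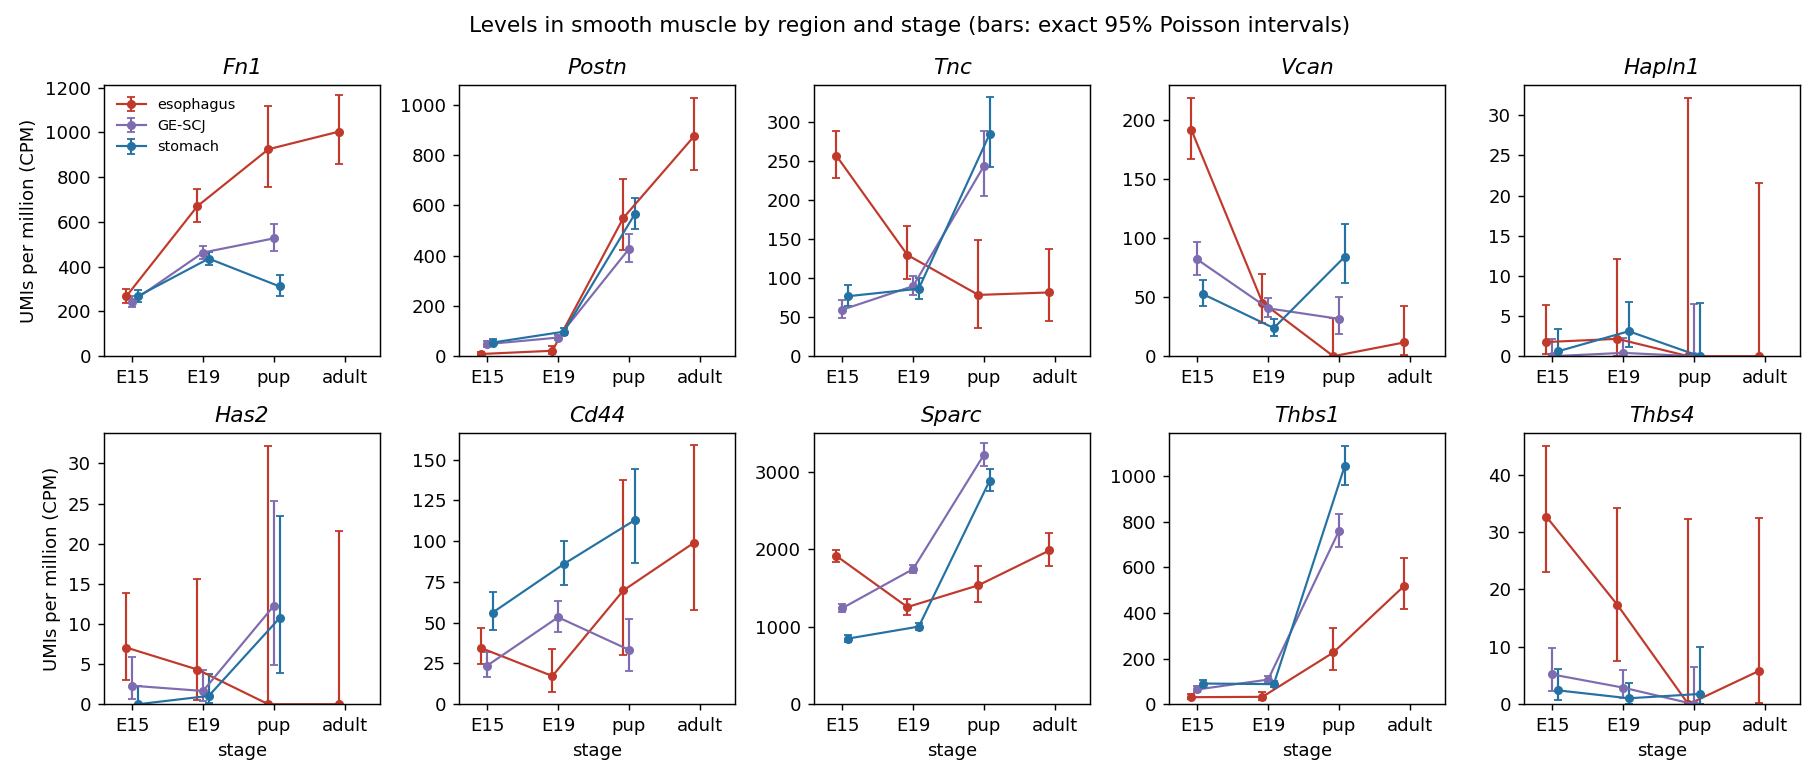
Level in CPM (vertical axes, each from 0) of the 10 genes in smooth muscle at E15, E19, pup and adult (horizontal axes), with 1 line for each region and exact 95% Poisson intervals as bars. *Postn* and *Thbs1* are higher after birth in the 3 regions, and the esophageal line of *Tnc* runs from 257 CPM at E15 to 78.5 in the pup while the other lines run upward.

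In neural cells, *Sparc* stood at 1437 CPM (1357 to 1521) in the esophagus at E15 and 8599 (8042 to 9185) in the pup, and in the stomach at 590 (542.1 to 641.4), 1669 (1555 to 1790) and 6949 (6442 to 7487) at E15, E19 and pup. Neural *Postn* was at 254 CPM at E15 and 826 in the pup in the esophagus, at 105 and 441 at E15 and E19 in the GE-SCJ, and at 118, 76.0 and 150 in the stomach. *Hapln1*, absent or rare in pup fibroblasts, gave 13 UMIs (126 CPM, 67.3 to 216) in the 24 neural cells of the pup esophagus and 7 UMIs (70.2 CPM, 28.2 to 144.6) in the 20 of the pup stomach. Neural *Vcan* was at 548.5 CPM at E15 and 214 in the pup in the esophagus, and at 35.1 and 150 in the stomach.

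In cells of the main squamous label, *Cd44* was highest and *Sparc* lowest in the adult. Squamous *Cd44* was at 17.3 CPM (10.1 to 27.7), 19.3 (13.2 to 27.3), 35.0 (21.4 to 54.1) and 173 (159.1 to 188.3) in the esophagus from E15 to the adult, and at 48.7 (35.4 to 65.3), 85.1 (60.8 to 115.9), 157 (128.3 to 190.6) and 263 (238.4 to 290.2) in the GE-SCJ. The adult stood above the pup in both regions, and the GE-SCJ stood above the esophagus at each stage, with intervals that did not overlap. Columnar cells kept between 7.69 and 17.3 CPM of *Cd44*. Squamous *Sparc* was lower at each later stage in the esophagus (429, 318, 180 and 74.8 CPM), and in the GE-SCJ it was 153 and 149 CPM before birth, 61.0 in pups and 25.2 in adults. A second squamous label, with 29 cells in the pup esophagus, was kept out of these series. It held *Sparc* at 32.4 CPM, below the adult esophagus, and *Cd44* at 2.49 CPM. Columnar *Thbs1* was at 122, 130 and 31.9 CPM in the GE-SCJ and at 119, 70.5 and 27.1 in the stomach at E15, E19 and pup, so its lowest value was in the pup, where fibroblasts of the same regions had their highest.

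Immune cells had 115 to 237 CPM of *Cd44* and 104.2 to 687 CPM of *Thbs1* over 8 groups. The second stromal label held *Sparc* at 5418 CPM (5218 to 5623) in the GE-SCJ at E19 and 5628 (5301 to 5970) in the pup stomach, and the endothelial label at 1727 and 2238 CPM in the GE-SCJ and stomach at E19. *Hapln1* was at 37.5 CPM (19.95 to 64.1) in endothelial cells of the GE-SCJ at E19.

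Other genes that make, bind or cut this matrix were taken as lists of 66 genes found in the matrix of counts. In fibroblasts, pup over E15, 28 of them passed the minimum in the esophagus, with 13 higher and 2 lower, where 8.84% of all counted genes were past the threshold upward and 12% downward. In the GE-SCJ 26 passed, with 13 higher and 2 lower (7.89% and 12.8% of all), and in the stomach 27, with 15 higher and 3 lower (6.88% and 10.5% of all). Adult over pup in the esophagus gave 16 that passed, 2 of them higher (*Tnxb* and *Itih5*) and 5 lower (*Adamts1*, *Adamts5*, *Thbs2*, *Spock2* and *Ccn1*), beside 7.73% and 13.0% of all. The median log2 ratio of the listed genes that passed was 0.87, 1.06 and 1.22 for pup over E15 and -0.45 for adult over pup. Esophagus over stomach gave 6 higher and 1 lower of 32 at E15 (2.59% and 2.45% of all), 5 and 5 of 34 at E19 (3.05% and 4.11% of all) and 1 and 1 of 22 in the pup (3.33% and 2.08% of all). The lists were made with earlier results of these data known, so the counts are no evidence that the listed genes stand apart. Most genes named below were picked for large ratios of pup over E15.

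For hyaluronan itself, *Ugdh*, which makes the UDP-glucuronic acid that the synthases use, was at 90.3 CPM at E15 and 268 in the pup in esophageal fibroblasts, 84.4 and 462 in the GE-SCJ, and 89.3 and 535 in the stomach. *Has1*, a second synthase, was at 124, 86.4 and 78.4 CPM in the pup regions and at 1.97 to 5.51 before birth, with 44 to 99 UMIs in each comparison. *Hmmr*, an intracellular hyaluronan-binding protein of the mitotic spindle, was at 47.8 to 79.1 CPM at E15 and at 0 to 8.96 in the pup. *Adamts1* and *Adamts5*, proteases that cleave versican, were at 135 to 180 and 13.9 to 78.2 CPM at E15 and at 405 to 627 and 266.5 to 361 in the pup, and both were lower in the adult esophagus (99.0 and 61.9 CPM).

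Among the other matricellular genes, *Tnxb* (tenascin-X, which spaces collagen fibrils) differed by 4.22 to 6.80 on the log2 scale, at 27.3, 4.51 and 10.2 CPM at E15 and 513, 528 and 408 in the pup in esophagus, GE-SCJ and stomach, and 1201 in the adult esophagus. *Spock2* (testican-2, a proteoglycan) went from 16.01, 10.9 and 10.2 to 328, 178 and 163.5 CPM and was at 49.5 in the adult. The thrombospondins *Thbs2* and *Thbs3* were higher in the pup as well, by 1.58 to 1.77 and 2.61 to 3.03 on the log2 scale, *Ccn2* by 2.17 to 3.13 and the thrombospondin receptor *Cd47* by 1.48 to 2.60. Of the fibronectin receptors, *Sdc4* was higher by 1.22 to 2.10 and the integrin chain *Itga8* was lower in the esophagus and stomach (a log2 ratio of -2.62 in the stomach), while in the GE-SCJ its ratio of -1.05 had an interval (-2.53 to 0.11) that included equality. None of the 4 plasma genes of the list (fibrinogens and vitronectin among them) reached the minimum in any comparison.

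Across the 10 fibroblast groups, which share 1 library, *Postn* and *Tnc* had the highest correlation of the member pairs (Pearson r = 0.88 on log2(CPM + 10)), followed by *Vcan* and *Has2* (0.81). Among the cells of single groups, thinned to 3000 UMIs, neither pair kept such a value. Spearman's rho ran from -0.11 to 0.20 over 8 groups for *Postn* and *Tnc* (median -0.05) and from -0.04 to 0.09 over 6 groups for *Vcan* and *Has2* (median 0.03). The highest median among the pairs was that of *Fn1* and *Sparc*, 0.26 over 10 groups (-0.19 to 0.47). In counts this sparse such values are weak descriptions.

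Over the 55 groups of all classes and 11672 genes, the 2 genes most like each member by Pearson r were *Clmp* and *Islr* for *Fn1* (both 0.89), *Itih5* and *Adamts5* for *Postn* (0.87 and 0.86), *Pkd1* and *Col6a3* for *Tnc* (0.85 and 0.84), *Fbln1* and *Has2* for *Vcan* (0.85 and 0.82), and *Itga2* and *Edil3* for *Hapln1* (0.76 and 0.71). For *Has2* they were *Lpar1* and *Ank2* (0.83 and 0.82), for *Cd44* *Lamp2* and *Lamp1* (0.73 and 0.71), for *Sparc* *Fkbp7* and *Col5a2* (both 0.94), for *Thbs1* *Lrp1* and *Gpx3* (0.83 and 0.82) and for *Thbs4* *Pi16* and *Tbx18* (0.81 and 0.79). The groups share 1 library and differ in depth, and 14 of these 20 genes stayed among the 10 most alike by rank correlation. The likeness of *Thbs4* did not hold at each stage: *Tbx18* was at 73.2 and 61.0 CPM in esophageal fibroblasts before birth and at 18.6 in the adult, whereas *Pi16* was at 25.2 and 36.7 before birth and at 545 in the adult.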

How the data were processed

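Cells were captured on the 10x Genomics 3′ platform. Per the labels and the methods of the study, the authors aligned and counted the reads with Cell Ranger 6.1.1 on the mm10 reference, took the region and stage from the tag of a cell, left out barcodes with few or very many genes, very many UMIs or a high mitochondrial percent and groups of poor read counts, and clustered and named the rest with Seurat. The deposited matrix holds raw UMI counts per gene and cell, and the deposited cell table holds the total counts, the percent of mitochondrial UMIs, the cluster and the class name. Doublets were not called here.

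UMIs were summed over the cells of a class, region and stage (at least 20 cells) and divided by all UMIs of the group. Depth was 519 to 79817 UMIs per cell. Log2 ratios add 1 UMI to either count and carry exact conditional binomial intervals. Shares carry Clopper-Pearson intervals (95%), and a count of 0 is given the limit of 3 counts. Thinning drew UMIs without replacement (seed 1). Python 3.11.15 with matplotlib 3.10.9, pandas 2.3.3, numpy 2.4.6, scikit-learn 1.9.0 and scipy 1.17.1 was used, and the ratio script was tested on simulated data. The members and the gene lists were chosen with earlier results of these data known. Named genes are the 10 members, the 12 listed genes with the largest smallest ratio of pup over E15 over the 3 regions (at least 100 UMIs and 1 direction in each), the genes of small counts, and 2 genes most like each member (at least 500 UMIs). *Has1* and the list of immediate early genes were added after their values were seen.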

Additional observations from a re-analysis of the deposited data

Results flagged for a closer look

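In 5 pairs of regions a gene differed at least 2-fold between stages in one direction in the one region and at least 2-fold in the opposite direction in the other, with both intervals off equality. Smaller opposite differences, such as those of *Vcan* and *Fn1* in fibroblasts, are left out here. None of these differences was tested, since each region and stage is 1 pool. *Cd44* in fibroblasts, pup over E19, had a log2 ratio of 1.63 in the esophagus and -1.21 in the GE-SCJ (difference 2.84), where the GE-SCJ pup held 12 UMIs. *Thbs4* in fibroblasts, pup over E15, had -1.55 in the esophagus and 2.42 in the stomach (difference -3.96), where the stomach held 4 and 7 UMIs. Of the 4 pup UMIs, 3 came from 1 cell, without which 1 UMI was left, a level of 2.27 CPM. *Tnc* in smooth muscle, pup over E15, had -1.56 in the esophagus against 2.03 in the GE-SCJ (difference -3.60) and 1.89 in the stomach (difference -3.45), where the esophageal pup held 9 UMIs in 22 cells. *Vcan* in neural cells, pup over E15, had -1.30 in the esophagus and 2.15 in the stomach (difference -3.45), with 24 and 20 pup cells.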

How the results depend on the processing

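The 57 log2 ratios of the members in the 7 fibroblast comparisons were recomputed under 8 settings, and smaller sets under 2 more, and none that was past 2-fold changed its direction. The number of members past 2-fold stayed within 1.5 times in each comparison except esophagus over stomach in the pup, which went from 2 to 1 with cells thinned to 3000 UMIs, where *Postn* stood at -0.97 in place of -1.50 (the cause was not tested), and to 3 (*Thbs4* added) with no minimum of UMIs. *Fn1*, adult over pup, was 1.99 and became 1.30 without the 1% of cells richest in it and 1.03 without cells with a UMI of *Epcam*, *Ptprc*, *Pecam1*, *Sox10* or *Myh11*. *Tnc*, esophagus over stomach at E15, was 0.99 and lay between 1.00 and 2.34 in 6 settings. The 2.34 came from thinning, where 6 stomach cells held 1 UMI each. *Cd44*, pup over E15 in the esophagus, was 1.15 and fell short with the mean of per-cell CPM (0.87) or cluster 9 alone (0.93). The other ratios that crossed 2-fold were *Has2*, pup over E15 in the esophagus, from -0.75 to -1.34 without the 1% of cells richest in it, and in the stomach *Fn1*, from -0.75 to -1.01 with thinning, and *Vcan*, from 0.72 to 1.03 with cluster 9 alone. Of these settings, cluster 9 alone and cells without those 5 markers were chosen after seeing the data. Centring on the median gene shifted ratios by at most 0.14. The largest shift was 2.88 without the 1% of cells richest in the gene, 1.43 with thinning and 0.98 without cells with those 5 markers. Of the 57 ratios, 15 moved outside their interval with the mean of per-cell CPM, 16 with thinning and 18 without cells with those 5 markers. No paired analysis was possible because each region and stage is 1 pool without replicates. Few UMIs limit *Hapln1*, *Has2* and, outside the esophagus, *Thbs4*.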
